A study of Mus musculus with 32 samples.

Results

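The constitutive proteasome subunits were taken as every gene whose symbol starts with Psma, Psmb, Psmc or Psmd followed by a digit, leaving out the immune and thymic subunits Psmb8, Psmb9, Psmb10 and Psmb11. The rule used symbols and no measured value. It found 35 of the 19291 genes with 1 symbol on the array, 14 of the core (Psma, Psmb) and 21 of the cap (Psmc, Psmd). One of them, Psmc3ip, encodes a partner protein of meiotic recombination and not a proteasome subunit, so the counts here rest on the other 34 genes, with 20 in the cap. The catalytic gene Psmb5 was not analysed here. Psmd5, Psmd9 and Psmd10 encode chaperones that assemble the cap, and Psma8 encodes an alpha subunit of the testis.

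The proteasome degrades proteins that carry ubiquitin chains. Its core is a stack of alpha and beta rings that encloses the proteolytic sites, and its cap recognises the chain, removes it, unfolds the substrate with a ring of ATPases and feeds it into the core. In skeletal muscle it breaks down myofibrillar proteins, and its genes are known to be induced together by the transcription factor NRF1 (Nfe2l1) when proteasome capacity falls short.

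The study compared tibialis anterior muscle, a fast hindlimb muscle, from Gaa-/- mice, labelled GAA-KO 6neo/6neo, and wild-type (WT) mice, both of strain B6/129, at 1.5, 4, 6 and 9 months of age. Gaa is the gene of lysosomal acid alpha-glucosidase, which breaks down glycogen and whose loss causes Pompe disease. Each of the 8 groups held 4 animals with 1 array each, 32 arrays in all. The labels name these arrays biological replicates and give no treatment.

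Gaa itself was lower in Gaa-/- by 3.55 to 3.79 on the log2 scale at the 4 ages (exact two-sided permutation test, p = 0.0286 for each of the 4 ages, which is the lowest value this group size allows). All 13 fast fibre markers lay above the lowest array median of 5.66 in every group. Arrays also differed in width: the standard deviation over the log2 values of 1 array, termed its spread, was between 1.79 and 2.03. It was lowest in WT at 9 months, at 1.85 ± 0.045 (SD, n = 4), against 1.94 ± 0.010 in WT at 6 months and 1.92 ± 0.026 in Gaa-/- at 9 months. Of 19 macrophage markers, 13 were called higher in Gaa-/- at 9 months and 17 over all ages, against 8.12% and 10.7% of all genes. Their mean log2 value per array lay at 5.35 to 5.86 over the WT groups and at 5.89 to 7.24 over the Gaa-/- groups. None of 9 T and B cell markers lay above the lowest array median in any group, and 0 were called by limma over all ages, with 1 at an unadjusted p under 0.05. In whole muscle, a change in the number of cells of a type cannot be told apart from a change in RNA per cell.

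Part of the constitutive subunits were higher in Gaa-/- muscle, and the most genes passed the test at 9 months. A gene is called where limma's Benjamini-Hochberg adjusted p, taken over all 19291 genes, was under 0.05. At 9 months 17 of the 34 genes were called higher and 0 lower, against 8.12% of all genes called higher and 3.8% lower. The called genes were 7 of 14 in the core (Psma3, Psma4, Psma5, Psma6, Psma7, Psmb1, Psmb4) and 10 of 20 in the cap (Psmc1, Psmc3, Psmc6, Psmd3, Psmd4, Psmd5, Psmd6, Psmd11, Psmd12, Psmd13). The median difference over the 34 genes was 0.33 on the log2 scale, with a median of -0.03 over all genes. With a covariate for the spread of the arrays, described further on, the member median at 9 months was 0.15, against 0.12, 0.02 and 0.14 at 1.5, 4 and 6 months. Of the 34 genes, 33 lay above the lowest array median. In a separate fit of the 10029 genes above it, adjusted over these alone, 18 of the 33 were called higher at 9 months, against 17.4%. At the earlier ages few genes passed. At 1.5 months 1 was called higher (Psmd6), against 2.08% of all genes called higher and 1.55% lower. At 4 months 2 were called higher (Psmd6 and Psmd11), against 3.4% higher and 2.3% lower. At 6 months 3 were called higher (Psmd6, Psmd11 and Psma7), against 3.57% higher and 2.79% lower. None of the 34 was called lower at any age. Without the first WT animal or without the fourth Gaa-/- animal of the 9-month groups, 10 genes were called there in place of 17. All 4 Gaa-/- arrays lay above all 4 WT arrays in 5 of the 34 genes at 1.5 months, against 4.86% of all genes, in 3 at 4 months, against 5.47%, in 9 at 6 months, against 6.04%, and in 13 at 9 months, against 7.56%.

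As the mean of the differences at the 4 ages, called over all ages here, 14 of the 34 genes were called higher and 0 lower, against 10.7% of all genes called higher and 8.81% lower. The difference was above 0 in 33 of 34 genes, with Psmb2 as the exception, and its median was 0.18 against -0.03 over all genes. That median was 0.10 with the covariate for spread, where Psma1, Psma2, Psmb7 and Psmd8 were also below 0. In the fit of the 10029 brighter genes alone, 18 of 33 were called higher, against 20.4% of those genes. Without the 9-month arrays, a check added after the data were seen, 8 genes remained called (Psma5, Psma7, Psmb1, Psmc3, Psmd5, Psmd6, Psmd11 and Psmd13), against 7.7% of all genes. Over the single ages, 17 genes were called at no age, 14 at 1 age, and Psma7 at 2, Psmd11 at 3 and Psmd6 at all 4.

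**Figure D1:**
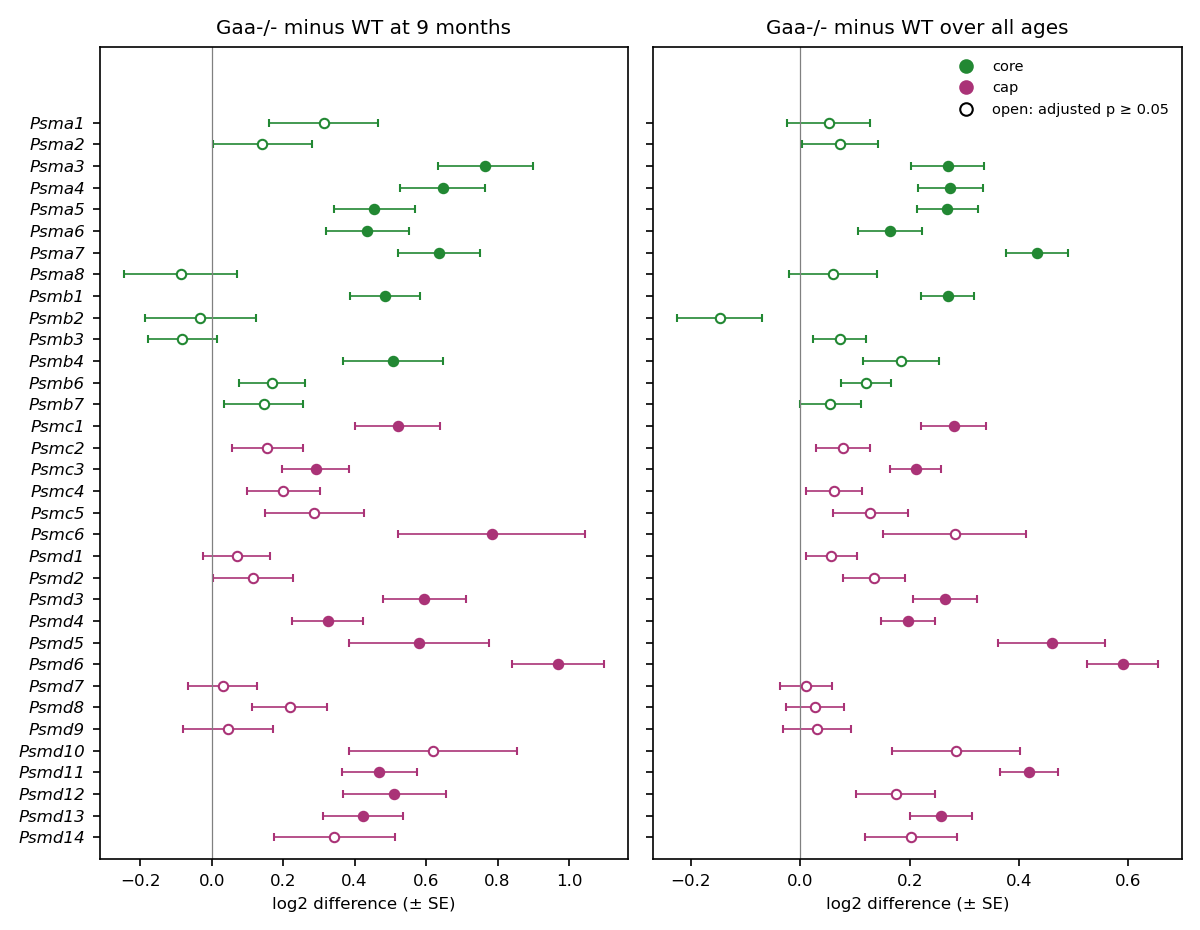
Difference between Gaa-/- and WT (log2, horizontal axis, bars ± SE) for each of the 34 genes at 9 months (left) and as the mean of the 4 ages (right), core in green and cap in purple. Filled points are the 17 and the 14 genes with a limma adjusted p under 0.05, and all of these lie to the right of 0.

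In the lid of the cap, the part that removes the ubiquitin chain, 5 of 8 genes (Psmd3, Psmd6, Psmd11, Psmd12, Psmd13) were called higher at 9 months, while Psmd7, Psmd8 and Psmd14 did not pass. Psmd6 encodes a scaffold subunit of the lid and had the largest difference of the 34 genes at 9 months and over all ages. Its log2 values in WT were 8.39, 8.56, 8.26 and 8.67 at 1.5 months, 8.72, 8.69, 8.62 and 8.94 at 4 months, 8.42, 8.52, 8.56 and 8.54 at 6 months, and 7.47, 7.78, 7.85 and 8.02 at 9 months. In Gaa-/- they were 8.93, 9.06, 8.81 and 8.94 at 1.5 months, 8.98, 9.31, 9.31 and 9.15 at 4 months, 9.13, 9.12, 8.63 and 9.07 at 6 months, and 8.69, 8.59, 8.68 and 9.04 at 9 months. At every age all 4 Gaa-/- arrays lay above all 4 WT arrays, and WT at 9 months lay below all other groups. The differences were 0.47, 0.44, 0.48 and 0.97 (SE 0.13 each) at 1.5, 4, 6 and 9 months, which is 1.96-fold at 9 months (limma adjusted p = 2.55e-06). Over all ages the difference was 0.59 ± 0.065 (SE), or 1.51-fold (limma adjusted p = 1.57e-08). The calls at the 3 younger ages were near the threshold, with adjusted p = 0.034, 0.034 and 0.020, and were lost in 5, 6 and 4 of the 8 fits that left out 1 array of that age.

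Psmd11, whose product is a lid subunit that promotes assembly of the whole particle, was called from 4 months on. In WT its log2 values were 8.83, 8.97, 8.56 and 8.90 at 1.5 months and 8.72, 8.89, 8.63 and 8.71 at 9 months. In Gaa-/- they were 9.10, 9.05, 9.14 and 9.31 at 1.5 months and 9.37, 8.91, 9.33 and 9.21 at 9 months. The groups did not overlap at any age, and WT at 9 months stood within the range of the younger WT groups, from 8.56 to 8.97. The differences were 0.34, 0.41, 0.46 and 0.47 (SE 0.11 each) at 1.5, 4, 6 and 9 months, with limma adjusted p = 0.072, 0.014, 0.0048 and 0.0026. Over all ages the difference was 0.42 ± 0.053 (SE, adjusted p = 2.35e-07). Psmd6 and Psmd11 thus differed in WT: between 9 and 6 months Psmd6 fell by 0.73 in WT (adjusted p = 0.0027) and Psmd11 differed by 0.02 (adjusted p = 0.95).

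Psmd3, another lid scaffold, was called at 9 months. Its WT values there were 8.62, 8.51, 8.83 and 8.57, and its Gaa-/- values 9.20, 9.21, 9.29 and 9.22, without overlap. The difference was 0.60 ± 0.12 (SE, limma adjusted p = 0.00053) at 9 months and between 0.10 and 0.25 at the younger ages. Psmd7, the inactive partner of the deubiquitinase in the lid, had the smallest difference over all ages of any cap gene, at 0.01 (95% interval -0.09 to 0.11), and its groups overlapped at every age. At 9 months its values were 10.81, 10.84, 11 and 11.03 in WT and 11.02, 10.79, 10.96 and 11.03 in Gaa-/-. Psmd14, the deubiquitinase itself, differed by 0.34 ± 0.17 (SE, adjusted p = 0.19) at 9 months.

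In the base of the cap, the ATPase genes Psmc1, Psmc3 and Psmc6 were 3 of 6 called at 9 months, and Psmc1 and Psmc3 were called over all ages. Psmc1 had WT values of 7.97, 8.22, 8.20 and 8.26 at 9 months and Gaa-/- values of 8.73, 8.50, 8.68 and 8.84, without overlap, and the difference was 0.52 ± 0.12 (SE, limma adjusted p = 0.0029). Psmc6 had the widest spread within groups of the 34 genes. At 9 months its values were 7.05, 7.62, 7.22 and 7.92 in WT and 8.66, 7.20, 8.31 and 8.78 in Gaa-/-, where the second animal lay among the WT arrays. The difference was 0.78 ± 0.26 (SE, adjusted p = 0.046), and the call was lost in 6 of the 8 fits that left out 1 of these arrays. The large base subunits Psmd1 and Psmd2 differed by 0.07 and 0.12 at 9 months and were not called. Psmd4, a ubiquitin receptor, was called at 9 months (0.33 ± 0.099, adjusted p = 0.028) and over all ages (0.20 ± 0.050, adjusted p = 0.0036).

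Of the assembly chaperones among the members, Psmd5 was called over all ages, at 0.46 ± 0.098 (SE, limma adjusted p = 0.00067). At 9 months its values were 5.29, 6.08, 5.67 and 6.37 in WT and 6.73, 6.01, 6.45 and 6.55 in Gaa-/-, with overlap, and its adjusted p was 0.0497. Leaving out 1 of these arrays ended that call in 5 of 8 fits. Psmd10 had values of 5.29, 5.55, 5.56 and 6.39 in WT and 6.46, 5.87, 6.28 and 6.66 in Gaa-/- at 9 months. It differed by 0.62 ± 0.23 (adjusted p = 0.083), and Psmd9 differed by 0.05 ± 0.13 (adjusted p = 0.86) at 9 months.

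In the core, 5 of the 8 alpha ring genes and 2 of the 6 beta ring genes were called higher at 9 months. Psma7, which lies in the alpha ring that gates the core, was the core gene with the smallest p over all ages. At 9 months its values were 7.59, 7.78, 7.97 and 7.97 in WT and 8.44, 8.31, 8.69 and 8.41 in Gaa-/-. At 6 months they were 8.11, 8.14, 8.06 and 8.05 in WT and 8.58, 8.63, 8.65 and 8.33 in Gaa-/-. The groups were separate at 4, 6 and 9 months and overlapped at 1.5 months. The difference passed the test at 6 months (0.46 ± 0.11, limma adjusted p = 0.010) and 9 months (0.64 ± 0.11, adjusted p = 0.00020). Over all ages it was 0.43 ± 0.057 (SE, adjusted p = 5.70e-07).

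Psma3 showed the largest core difference at 9 months and little at the youngest ages. Its values at 9 months were 8.03, 8.0, 8.16 and 8.32 in WT and 9.03, 8.48, 9.02 and 9.03 in Gaa-/-, and at 1.5 months 8.83, 8.89, 8.93 and 8.78 in WT and 8.89, 8.96, 9.01 and 8.94 in Gaa-/-. Its difference was 0.77 ± 0.13 at 9 months (limma adjusted p = 0.00013) and 0.09 ± 0.13 at 1.5 months. The change of the difference between these ages, 0.68 ± 0.19, did not pass (adjusted p = 0.063). Psma4 had values of 8.78, 9.01, 8.99 and 9.29 in WT and 9.73, 9.33, 9.75 and 9.85 in Gaa-/- at 9 months. Psma5 had values of 7.07, 7.25, 7.25 and 7.05 in WT and 7.68, 7.41, 7.54 and 7.80 in Gaa-/-. Both were separate between genotypes there, with differences of 0.65 ± 0.12 (adjusted p = 0.00027) and 0.46 ± 0.11 (adjusted p = 0.0062). Psma1, the core gene with the smallest difference over all ages, stood at 0.05 (95% interval -0.10 to 0.21). Its values at 9 months overlapped, at 8.03, 7.95, 8.18 and 8.36 in WT and 8.74, 8.01, 8.51 and 8.52 in Gaa-/-.

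The catalytic beta genes on the array did not pass between genotypes, though for Psmb6 at 1.5 months and over all ages this depended on the setting. Psmb6 encodes the caspase-like subunit and had values at 9 months of 8.93, 9.01, 9.19 and 9.14 in WT and 9.20, 9.10, 9.25 and 9.39 in Gaa-/-, with overlap. Its difference was 0.17 ± 0.092 at 9 months (limma adjusted p = 0.25) and 0.12 over all ages (95% interval 0.03 to 0.21, adjusted p = 0.062). The latter adjusted p was 0.0497 with arrays centred on the median, 0.023 among the brighter genes alone, 0.036 with trended and robust variances and 0.035 with array weights, and it passed in 4 of 32 fits without 1 array. At 1.5 months Psmb6 differed by 0.26 (limma adjusted p = 0.13), without overlap of its arrays, and it was called among the brighter genes alone. Psmb7 encodes the trypsin-like subunit and had values at 9 months of 9.68, 9.88, 9.91 and 10.24 in WT and 10.16, 9.76, 10.15 and 10.22 in Gaa-/-. Its difference was 0.15 ± 0.11 at 9 months (adjusted p = 0.44) and 0.05 over all ages (95% interval -0.06 to 0.17), and both were below 0 with the covariate for spread (-0.04 and -0.01). Among the non-catalytic beta genes, Psmb1 rose by 0.49 ± 0.097 at 9 months (adjusted p = 0.00076), from WT values of 8.87, 8.77, 9.11 and 9.12 to 9.36, 9.43, 9.51 and 9.51. Psmb4 rose by 0.51 ± 0.14 (adjusted p = 0.015), with overlap of its arrays. Psmb3 differed by -0.08 and Psmb2 by -0.03 at 9 months, and Psmb2 was the 1 gene below 0 at all 4 ages. Psma8 had a mean log2 value of 4.02, below the lowest array median, and differed by -0.09 at 9 months.

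**Figure D2:**
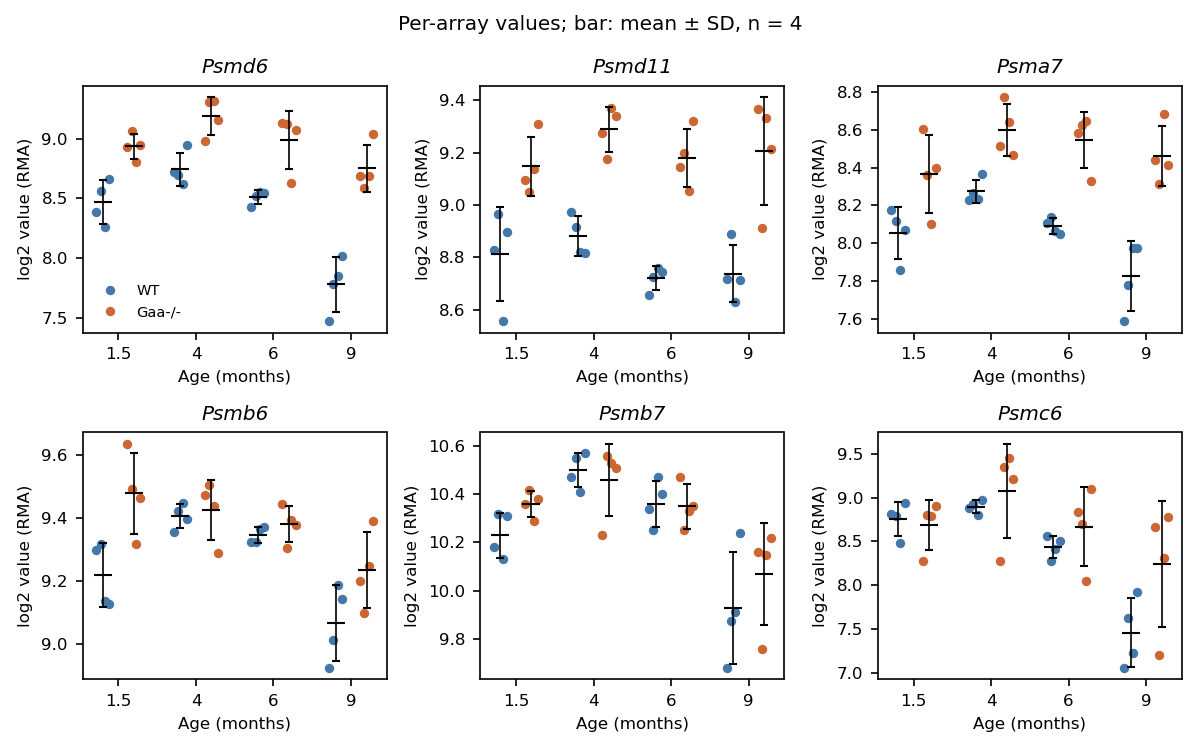
Log2 values by age (months) for 6 genes, 1 point per array, WT in blue and Gaa-/- in orange, with black bars for mean ± SD (n = 4). Psmd6 is separate between genotypes at every age and lowest in WT at 9 months, Psmd11 is separate with level WT values, and the catalytic Psmb6 and Psmb7 overlap at 9 months.

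Sequences upstream of the start sites came from RefSeq (GRCm38.p6), which held windows of 300 bases, from 250 bases before to 50 after the start, for 27 of the 34 genes (10 core, 17 cap). They are shown for the 3 genes called at more than 1 age, for the catalytic Psmb6 and for Psmc6, whose WT level fell most with age. Each line gives the 250 bases before the start, in the direction of transcription, with matches to the searched motifs in capitals. The motifs, searched on both strands with overlaps allowed, were the antioxidant response element core that NRF1 and NRF2 bind (TGACNNNGC and TGAGNNNGC), the CCAAT box, an ETS-type site (CCGGAAG), a YY1-type site (AAGATGGC), the cAMP response element (TGACGTCA) and the heat shock element.
Psmd6, chr14:14120946-14121195, minus strand: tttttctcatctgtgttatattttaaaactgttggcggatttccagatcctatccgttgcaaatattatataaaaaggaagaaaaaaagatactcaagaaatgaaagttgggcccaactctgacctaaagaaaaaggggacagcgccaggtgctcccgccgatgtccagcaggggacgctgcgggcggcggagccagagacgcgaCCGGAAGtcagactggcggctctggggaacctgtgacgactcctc
Psmd11, chr11:80428365-80428614, plus strand: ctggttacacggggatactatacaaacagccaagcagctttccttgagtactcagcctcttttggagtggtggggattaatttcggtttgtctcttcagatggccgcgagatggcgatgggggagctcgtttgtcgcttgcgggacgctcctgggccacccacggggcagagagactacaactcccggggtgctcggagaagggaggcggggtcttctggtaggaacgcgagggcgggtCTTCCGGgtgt
Psma7, chr2:180042465-180042714, minus strand: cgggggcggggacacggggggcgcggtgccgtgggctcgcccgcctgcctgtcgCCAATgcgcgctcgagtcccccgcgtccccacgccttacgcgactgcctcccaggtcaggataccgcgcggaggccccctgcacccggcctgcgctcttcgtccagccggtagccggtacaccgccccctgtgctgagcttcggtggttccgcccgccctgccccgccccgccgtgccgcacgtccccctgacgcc
Psmb6, chr11:70525107-70525356, plus strand: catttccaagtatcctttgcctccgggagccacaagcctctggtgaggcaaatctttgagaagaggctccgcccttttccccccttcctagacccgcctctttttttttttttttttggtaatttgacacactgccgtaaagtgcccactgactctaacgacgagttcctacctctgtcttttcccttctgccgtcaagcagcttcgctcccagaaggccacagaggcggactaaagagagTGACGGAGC
Psmc6, chr14:45329574-45329823, plus strand: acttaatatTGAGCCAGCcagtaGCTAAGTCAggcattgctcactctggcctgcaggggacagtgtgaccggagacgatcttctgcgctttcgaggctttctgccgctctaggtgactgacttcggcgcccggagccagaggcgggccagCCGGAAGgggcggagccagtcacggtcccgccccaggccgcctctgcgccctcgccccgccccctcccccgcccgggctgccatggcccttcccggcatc

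Psmd6 and Psmd11 each hold the ETS-type letters, Psmd11 on the opposite strand, and neither holds an antioxidant response element core. Psmb6, which was not called between genotypes in the fit reported here, holds TGACNNNGC in the bases next to its start. Over the 300-base windows, TGACNNNGC was in 4 of 27 genes (Psmb6, Psmc6, Psmd9, Psmd12), against 12.4% of all 32851 windows, and TGAGNNNGC was in 11 of 27, against 17.6%. One or the other was in 13 of 27, against 27.8%. CCGGAAG was in 10 of 27 genes, 1 of 10 in the core (Psma6) and 9 of 17 in the cap, against 8.86% of all windows. These are counts of genes with a match in any window, and the 27 genes had 29 windows. Counted by window, CCGGAAG was in 11 of 29, TGAGNNNGC in 12, TGACNNNGC in 4 and either core in 14. Psma7 holds TGAGNNNGC only in the bases after its start, which are not shown. The CCAAT box was in 11 of 27 against 37.4%, AAGATGGC in 3 against 2.75%, TGACGTCA in 0 against 1.79%, and the heat shock element in 0 against 0.603%. These matches describe letters in a window, and binding was not measured.

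Within WT many of these genes were lower at 9 months. Between 9 and 6 months, 11 of the 34 genes were called lower in WT and 0 higher, against 6.34% of all genes called lower and 3.13% higher, and 8 of those 11 were among the 17 called between genotypes at 9 months. All 4 WT arrays at 9 months lay below all 4 at 6 months in 18 genes, against 8.92% of all genes. Between 9 and 1.5 months, 14 were called lower in WT and 0 higher, against 9.78% lower and 4.6% higher. In the fit of the 10029 brighter genes alone, 15 of 33 were called lower in WT between 9 and 6 months, against 16.9%. Between 9 and 1.5 months 18 of 33 were, against 22%. Without the first WT animal at 9 months the counts of 11 and 14 became 3 and 9. Without the fourth WT animal at 6 months the count of 11 became 7. In Gaa-/- 0 of 34 were called between 9 and 6 months or between 9 and 1.5 months, against 0.27% and 4.09% of all genes called in either direction. At an unadjusted limma p under 0.05 there were 3 and 7 of the 34, with no share of all genes given for that limit. The median differences of the 34 genes in these comparisons were -0.12 and -0.10 in Gaa-/-, against -0.33 and -0.29 in WT. With the covariate for spread they were -0.06 and -0.07 in Gaa-/-, against -0.09 and -0.12 in WT. The comparisons at 9 months share the WT 9-month arrays.

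The largest fall in WT was that of Psmc6, by 1.3 ± 0.26 (SE, limma adjusted p = 0.00098) from 1.5 to 9 months, with WT values of 8.81, 8.79, 8.48 and 8.94 at 1.5 months against the 9-month values given above. Psmd3 fell by 0.78 ± 0.12 (adjusted p = 3.50e-05) and Psma3 by 0.73 ± 0.13 (adjusted p = 0.00035) over the same ages. Psmd10 fell by 0.76 ± 0.23 (adjusted p = 0.028), with overlap of its arrays. The catalytic Psmb6 and Psmb7 fell by 0.28 ± 0.092 (adjusted p = 0.0499, lost in 6 of 8 fits without 1 array) and 0.44 ± 0.11 (adjusted p = 0.015) between 6 and 9 months in WT. Psmc3ip moved the other way there: its values were 5.47, 5.20, 5.26 and 4.79 at 6 months and 5.63, 5.75, 5.70 and 5.71 at 9 months, higher by 0.52 ± 0.16 (adjusted p = 0.042), and it did not differ between genotypes by the test over all ages (-0.04 ± 0.081, adjusted p = 0.76).

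Whether the genotype difference changed with age was tested directly. When the 9-month difference was set against the 1.5-month difference, 0 of 34 genes were called by limma, against 1.46% of all genes called. At an unadjusted limma p under 0.05 there were 12, and no share of all genes is given for that limit. By the moderated F-test over the 4 ages 0 were called, against 0.549% of all genes called. At an unadjusted p under 0.05 in that F-test there were 6, again without such a share. The smallest unadjusted p in the F-test was that of Psmd8 (0.00045, adjusted p = 0.067), followed by Psma3 (0.0015, adjusted p = 0.12). The difference was largest at 9 months in 25 of 34 genes, 10 of 14 in the core and 15 of 20 in the cap. That count was not taken over all genes. With the covariate for spread, the median change of the difference from 1.5 to 9 months was 0.04 in the 34 genes and 0.03 over all genes. No single gene passed the test of a change with age.

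Core and cap differed between genotypes in the same direction at all 4 ages. Their levels were taken per array as the mean over the genes of the log2 value less that gene's mean over the 32 arrays. In WT at 9 months the core level was -0.51, -0.44, -0.27 and -0.22 and the cap level -0.59, -0.42, -0.37 and -0.25. In Gaa-/- at 9 months the core level was -0.02, -0.21, 0.01 and 0.07 and the cap level 0.03, -0.28, 0.01 and 0.12. WT at 9 months held the lowest core arrays of all groups, and the second Gaa-/- animal lay just above the highest of them in the core and below it in the cap. The genotype difference of the core level was 0.09, 0.07, 0.13 and 0.32 at 1.5, 4, 6 and 9 months, and that of the cap level 0.15, 0.13, 0.17 and 0.38. The core difference was smaller than the cap difference by 0.064, 0.059, 0.037 and 0.056 at these ages and by 0.054 over all ages, with an SE of 0.035 for 1 age and 0.017 over all ages, from the pooled SD of core minus cap within groups. These levels are averages over chosen genes and were not tested.

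**Figure D3:**
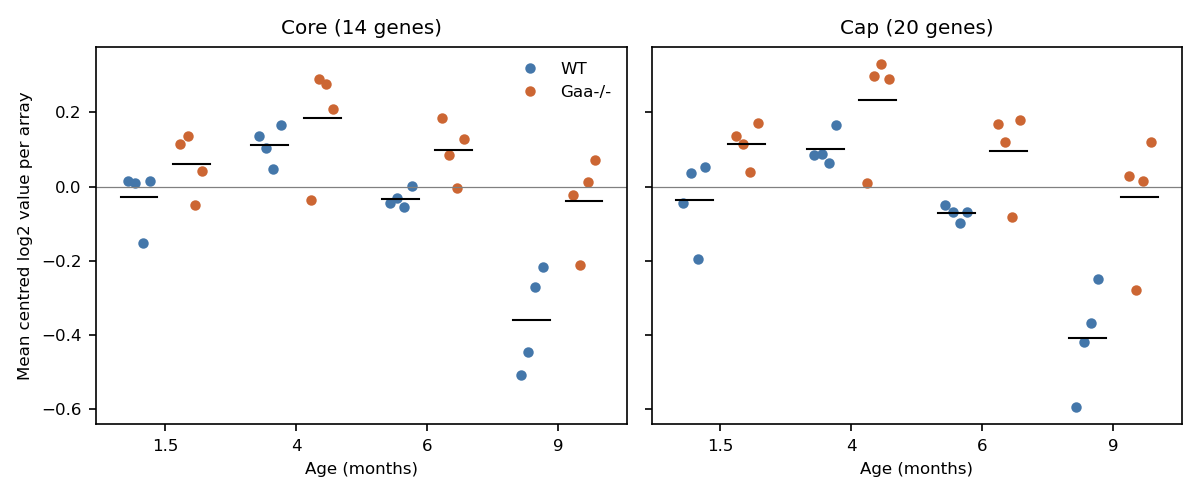
Mean centred log2 value per array of the 14 core genes (left) and the 20 cap genes (right) by age (months), 1 point per array, WT in blue, Gaa-/- in orange, black lines for group means. The WT arrays at 9 months run from -0.51 to -0.22 in the core and from -0.59 to -0.25 in the cap, below all other arrays except, in the cap, the second Gaa-/- animal at 9 months (-0.28).

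After the group means were removed, the genes still rose and fell together from array to array. Pearson's r over the 32 arrays had a median of 0.41 over 91 pairs of core genes, 0.35 over 190 pairs of cap genes and 0.37 over 280 pairs of a core and a cap gene. The same median was 0.39 in the chaperonin TRiC (21 pairs), 0.25 in the COP9 signalosome (36 pairs) and 0.27 in translation factor eIF3 (55 pairs). All genes share the same arrays and their normalization. Psma8, Psmb3, Psmd2 and Psmd9 had median correlations with the other members between -0.14 and 0.03, and Psmd6 had the highest, at 0.57.

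The level of the subunits went with the spread of the array. In 8 of 8 groups the array with the lowest core level was the array of lowest spread, and so was the array with the lowest cap level. In WT at 9 months the arrays of spread 1.79, 1.83, 1.86 and 1.90 had core levels of -0.51, -0.44, -0.27 and -0.22. Within groups, a rise of 0.1 in spread went with a median rise of 0.23 in the 34 genes, positive in 31 of them, and with 0.10 in the 10029 genes above the lowest array median, positive in 64.7% of these, while the median over all genes was -0.03. The spread was lower in WT at 9 months than in Gaa-/- at 9 months by 0.071 and than in WT at 6 months by 0.089, while it was higher in Gaa-/- by 0.027 at 4 months and by 0.0066 at 6 months and differed by -0.0005 at 1.5 months.

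**Figure D4:**
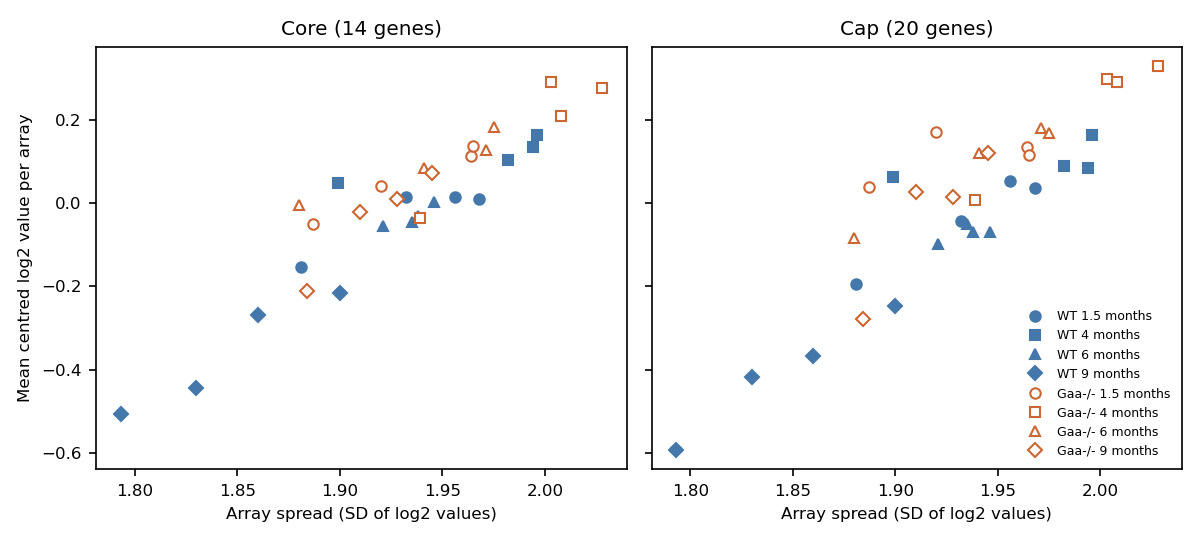
Mean centred log2 value of the core (left) and cap (right) genes against the array spread (SD of all log2 values of an array), 1 point per array, WT filled in blue and Gaa-/- open in orange, with a symbol for each age. Levels are higher on arrays of larger spread, and 3 of the 4 WT 9-month arrays have a spread below all others.

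When the fit also held this spread as a covariate, 7 of the 34 genes stayed called at 9 months, Psma3, Psma4, Psma7, Psmb1, Psmd3, Psmd6 and Psmd11, against 4.06% of all genes called higher. Psmd6 then differed by 0.70 ± 0.10 (limma adjusted p = 1.78e-05), Psma3 by 0.60 ± 0.14 (adjusted p = 0.0045) and Psmc6 by 0.33 ± 0.25 (adjusted p = 0.53). Over all ages 13 genes were called higher and Psmb2 lower, by -0.27 ± 0.058 (adjusted p = 0.00092). For WT at 9 against 6 months 0 were called by limma, where 2 of all 19291 genes were, and for WT at 9 against 1.5 months 2, Psma3 and Psmd3. Spread and group go together at 9 months, and what part of the difference belongs to either cannot be told apart there.

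**Figure D5:**
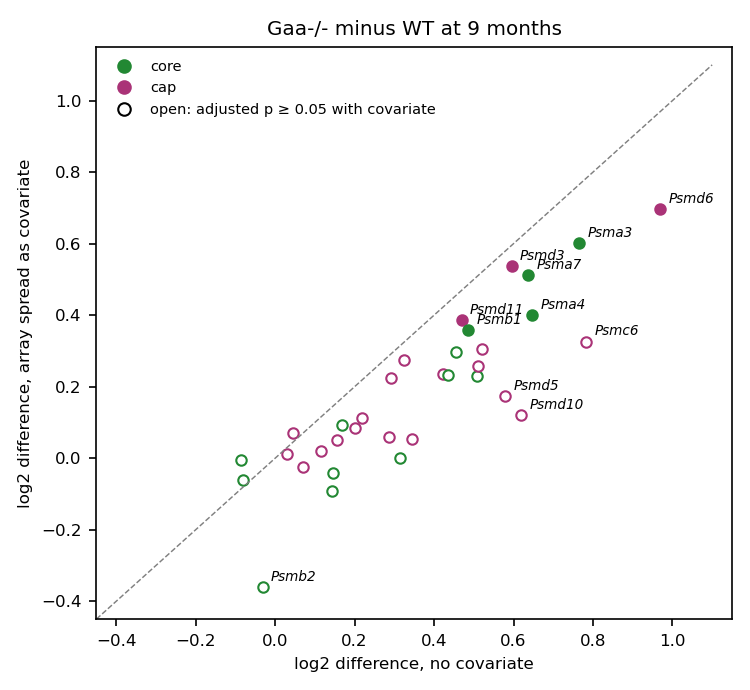
Difference between Gaa-/- and WT at 9 months (log2) without a covariate (horizontal) and with a covariate for spread (vertical) for the 34 genes, core in green and cap in purple, with a dashed line of equality. Filled points are the 7 genes with an adjusted p under 0.05 with the covariate. Psmd6 stands at 0.97 and 0.70, and Psmc6 at 0.78 and 0.33.

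Genes that work with the proteasome were read from the same fit, at 9 months and over all ages, where 8.12% and 10.7% of all genes were called higher and 3.8% and 8.81% lower. None of the 4 immune and thymic subunits excluded by the rule (Psmb8, Psmb9, Psmb10, Psmb11) was called by limma at either (0 and 1 at an unadjusted p under 0.05), with differences over all ages from -0.22 to 0.19. Of the 5 genes of activators and inhibitors, 2 were called over all ages, in opposite directions, and they encode the partner subunits of 1 activator ring. Psme1 fell by 0.48 ± 0.068 (SE, limma adjusted p = 1.75e-06). Its WT values at 4 months were 10.10, 9.90, 9.67 and 9.92 and its Gaa-/- values 8.85, 9.30, 9.10 and 9.26, and the groups were separate at 1.5, 4 and 6 months and overlapped at 9 months. Psme2 rose by 0.36 ± 0.067 (adjusted p = 0.00015), with WT values of 6.53, 6.51, 6.82 and 6.81 at 9 months and Gaa-/- values of 7.20, 7.13, 7.21 and 7.44. Psme2b, a near copy of Psme2 with a probe set of its own, differed by 0.28 over all ages (adjusted p = 0.016), and cross-hybridisation between the copies was not tested.

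Of 6 assembly chaperones outside the members that were measured, 0 were called by limma over all ages or at 9 months (1 and 2 at an unadjusted p under 0.05). Of 10 measured receptors and deubiquitinases that bind the proteasome, 3 rose and 1 fell over all ages. At 9 months 1 was called, Uchl5, a deubiquitinase of the cap, higher by 0.78 ± 0.23 (limma adjusted p = 0.023), and in WT it fell by 1.20 between 6 and 9 months (adjusted p = 0.0045). Rad23b, a shuttle of ubiquitinated proteins, rose by 0.18 ± 0.053 (limma adjusted p = 0.011), Usp14, a proteasome-bound deubiquitinase, by 0.27 ± 0.078 (adjusted p = 0.013) and Ube3c, a proteasome-bound ligase, by 0.18 ± 0.054 (adjusted p = 0.014), while Zfand5 fell by 0.24 ± 0.063 (adjusted p = 0.0056). Of 9 measured genes of the NRF1 pathway, 3 rose over all ages: Nploc4, a cofactor of the unfoldase Vcp (0.43 ± 0.050, adjusted p = 5.07e-08), Mafk (0.38 ± 0.093, adjusted p = 0.0029) and Vcp itself (0.31 ± 0.11, adjusted p = 0.046). Nfe2l1 rose at 9 months by 0.36 ± 0.095 (adjusted p = 0.0095). Its values were 11.01, 11.14, 11.22 and 11.27 in WT and 11.65, 11.27, 11.62 and 11.56 in Gaa-/-, the groups overlapped, and in WT it fell by 0.40 between 6 and 9 months (adjusted p = 0.0096).

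Among 12 measured muscle ubiquitin ligases, 4 rose and 1 fell over all ages. Trim63 (MuRF1), which marks myofibrillar proteins for degradation, rose by 0.82 ± 0.085 (limma adjusted p = 5.41e-09) and differed by 0.32 ± 0.17 (adjusted p = 0.24) at 9 months. Fbxo30 rose by 0.34 ± 0.082 over all ages (adjusted p = 0.0022) and by 0.84 ± 0.16 at 9 months (adjusted p = 0.00056), and Trim55 fell by 0.22 ± 0.051 (adjusted p = 0.0019). Of 14 measured NRF2 targets, 7 rose and 2 fell over all ages, led by Srxn1 (1.69 ± 0.082, adjusted p = 1.03e-16), Sqstm1, the autophagy receptor p62 (0.89 ± 0.045, adjusted p = 2.68e-16) and Nqo1 (1.54 ± 0.097, adjusted p = 4.93e-14). Of 8 measured heat shock genes, 5 rose, among them Hspb1 (0.90 ± 0.081, adjusted p = 2.80e-10) and Cryab (0.83 ± 0.085, adjusted p = 3.97e-09).

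Other multi-subunit complexes of the cytosol gave a setting for these counts, beside 8.12% of all genes called higher at 9 months and 10.7% over all ages. In TRiC 3 of 7 measured genes were called higher at 9 months and 5 over all ages, with Tcp1 at 0.81 ± 0.12 (limma adjusted p = 1.72e-05) at 9 months, and Tcp1 fell by 0.63 in WT between 6 and 9 months (adjusted p = 0.0049). In eIF3 4 of 11 were called higher at 9 months and 5 over all ages. In the COP9 signalosome, whose subunits resemble those of the lid, 1 of 9 (Gps1, 0.37 ± 0.11, adjusted p = 0.022) was called at 9 months and 2 over all ages. The median difference at 9 months was 0.53 in TRiC, 0.24 in eIF3, 0.17 in the COP9 signalosome and 0.33 in the proteasome, and the complexes were not tested against each other.
Of the cell type lists besides macrophages, fibroblast markers rose in 4 of 9 genes at 9 months, with mean log2 values per array of 7.70 to 8.14 in WT and 8.40 to 8.62 in Gaa-/- at that age. Over all ages Mfap5 and Gsn were called higher as well. Satellite cell and regenerating fibre markers rose in 2 of 9 at 9 months, Ncam1 (3.08 ± 0.14) and Musk (0.98 ± 0.16), and 4 over all ages. Pax7, Myf5, Myod1, Myog, Cdh15, Myh3 and Myh8 were not called at 9 months, with differences from -0.19 to 0.53. The mean of this list, which includes Ncam1, was 6.70 to 6.86 in WT and 7.20 to 7.39 in Gaa-/- at 9 months. The list also includes Myh8, whose mean log2 value over the 32 arrays was 13.59, beside 13.48 for Myh4 of the fast list. Whether the Myh8 probe set reads other myosin genes was not tested. Endothelial markers fell in 3 of 9 over all ages, against 8.81% of all genes, and their smallest limma adjusted p at 9 months was 0.063 (Flt1). Fast fibre markers rose in 1 of 13 (Myh2) and fell in 3 at 9 months, and slow fibre markers rose in 1 of 7. The shares of all genes at 9 months were 8.12% higher and 3.8% lower. Over all ages Tnnc2 of the fast list and Myl3 of the slow list were called lower as well, and Myh2 was not called. The part of these cell types in the subunit differences was not tested.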

How the data were processed

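Muscle RNA of 32 animals (8 groups of 4) was read on 1-colour Affymetrix arrays. Per the submitters' processing notes, the authors used RMA and the R package affy, and they deposited 1 log2 value per probe set and array; no source used here gives versions, a genome build or filters. Genes were named through the platform table: 19291 of 20079 probe sets have exactly 1 symbol, and the other 788 do not and were left out. In R 4.3.3, limma 3.58.1 (lmFit with 1 mean per group, contrasts, eBayes, two-sided) was fitted to all 32 arrays without a filter, and p-values were adjusted over the 19291 genes. The procedure was tested on simulated data with independent noise for each gene, which held neither the correlation between genes nor the array spread. Per-array values are given for the catalytic genes, the 4 core and 4 cap genes of smallest p over all ages, the smallest differences, signs against the majority, and the 4 largest called differences of a contrast; other lists name up to 4 genes by p. Per-array values of Psme1, Psme2 and Nfe2l1, and Psme2b, were added after their values were seen. Alternatives were another normalization, a filter, other variance settings, array weights, the array spread, a replicate block, and leaving arrays out. The number of arrays limits the precision. The members, lists and motifs were chosen with earlier results of these data known.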

Additional observations from a re-analysis of the deposited data

Results flagged for a closer look

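Of 168 sets of 4 arrays examined (the genes with per-array values and the core, cap and spread levels, in 8 groups), 14 held 1 array whose distance to its nearest neighbour was, as a share of the whole range of the set, above Dixon's critical value for 4 samples. Chance gives about 1 in 20. In Gaa-/- at 6 months the third animal was low for Psma3 (8.98), Psmd5 (6.11) and Psmd6 (8.63). In Gaa-/- at 9 months the second animal was low for Psma3 (8.48) and Psmb7 (9.76). In Gaa-/- at 4 months the first animal was low for Psmb7 (10.23), Psmc1 (8.64), Psmd10 (5.98) and the cap level (0.0084). In WT the third animal at 1.5 months was low for Psma4 (9.27) and the core level (-0.15), the third at 4 months for Psmc1 (8.37) and the array spread (1.90), and the fourth at 6 months for Psmd10 (5.97). Apart from Psmd10 in WT at 6 months, each of these arrays had the lowest spread of its group.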

How the results depend on the processing

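Among the 16 members chosen for per-array values, no called difference changed sign under any alternative run. Signs were checked for the genotype differences at each age and over all ages, and for WT at 9 against 6 months. Of 2000 single-gene values under alternatives, 54 had the opposite sign, all of differences that were not called. Psmb7 and Psma1 over all ages with the spread as a covariate were examples (-0.01 and -0.06). The largest difference that changed sign was that of Psmd5 in WT at 9 against 6 months, -0.42 in the fit reported here. Core minus cap kept its sign and moved by less than its SD between arrays, 0.049. That limit is wide beside differences of -0.056 at 9 months and -0.054 over all ages. Leaving out single arrays gave -0.082 to -0.040 at 9 months and -0.061 to -0.048 over all ages. Counts of called genes moved as follows, and moves of up to 1.5-fold are listed only in part. At 1.5 months (1 in the report) they were 3 with a second quantile normalization, with the array spread as a covariate, with arrays scaled to 1 spread, with trended and robust variances and with array weights, 4 with the filter on dim genes and 0 with only the 8 arrays compared. At 4 months (2) they were 4 with the filter, 5 with array weights and 0 with only the 8 arrays. At 9 months (17) they were 12 with a second quantile normalization, 7 with the spread and 6 with only the 8 arrays. Over all ages (14) the count was 20 with array weights and 8 without the 9-month arrays. The change from 1.5 to 9 months (0) was called for 1 gene with the filter, trended variances or array weights, and the F-test over ages (0) for 1 with quantile normalization, the spread or scaled arrays and for 2 with the other 3. In WT, 9 against 6 months (11) gave 6 with quantile normalization or scaling, 0 with the spread and 4 with only the 8 arrays, and 9 against 1.5 months (14) gave 2 with the spread; in Gaa-/- the latter (0) gave 1. Leaving out single arrays gave 0 to 1 genes at 1.5 months, 0 to 3 at 4 months, 2 to 4 at 6 months, 10 to 19 at 9 months, 13 to 20 over all ages, 0 to 3 for the change, 0 to 2 for the F-test, 9 to 17 for WT at 9 against 1.5 months and 3 to 15 for WT at 9 against 6 months. The lowest counts at 9 months (10) came without WT animal 1 or without Gaa-/- animal 4, and those of 9 and 3 within WT came without WT animal 1 at 9 months; without WT animal 4 at 6 months the 9 against 6 months count was 7. Replicate numbers were not used to pair the arrays. The r of deviations of arrays of the same number ran from -0.20 to 0.30 in 16 pairs and was over 0.1 in 3. With a replicate block the counts were 1, 1, 3 and 15 at the 4 ages and 14 over all ages. The call lost at 4 months was that of Psmd11 (limma adjusted p = 0.062). The causes of these moves were not tested, except that fewer arrays or genes were used where the setting says so. Of the values of single genes, 1873 kept their side of the threshold, 39 gained it and 88 lost it.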
